A study of Mus musculus with 2 samples.

Results

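Differentiated C2C12 cells, a mouse myoblast line whose cells fuse into multinucleate myotubes, were profiled for the genes that make cholesterol and fatty acids. The list of 33 genes was taken by name, through probe sets assigned to a single gene, and all 33 were found among 19938 named genes of the array. It holds 17 enzymes of sterol synthesis, 10 enzymes of fatty acid synthesis, desaturation and elongation, 5 regulators of the SREBP transcription factors, and the sterol carrier Stard4. Both cultures were kept for 7 days in 2% horse serum after growth in 10% fetal bovine serum, then were infected with an adenovirus for 48 h (multiplicity of infection 30). One culture received Ad-caERα, which expresses a constitutively active estrogen receptor α, and the control culture received Ad-DsRed, named for a red fluorescent protein. The infection itself was therefore shared by both groups, and no uninfected culture was analysed here. The labels do not say which change makes the receptor active, from which species it comes or which promoter drives it. Each group is 1 array of 1 line, so every difference below is a description without a replicate check, and no test between the vectors could be made.

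Cholesterol and fatty acids are both built from cytosolic acetyl-CoA. The mevalonate pathway turns it into isoprenoid units and squalene, which is then closed into a ring and trimmed to cholesterol, while acetyl-CoA carboxylase and fatty acid synthase make saturated chains that desaturases and elongases modify. Transcription of both branches is driven by the SREBP factors, encoded by Srebf2 (mainly sterol genes) and Srebf1 (mainly fatty acid genes), which SCAP escorts out of the endoplasmic reticulum when sterols are scarce and which INSIG proteins hold back when sterols are plentiful.

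The 33 genes differed little between the arrays. Signals are log2 values after RMA, and each difference is taken as Ad-caERα minus Ad-DsRed. All 33 members lay above the detection floor on both arrays, a log2 signal of 5.11 set from olfactory and vomeronasal receptor genes that muscle is not thought to express. By a rule of 2-fold, 0 members were higher and 0 were lower, against 0.590% and 0.0959% of the 13554 measured genes. By 1.5-fold, 0 members were higher and 0 were lower, against 1.82% and 0.885%. By a smaller rule, a log2 difference of at least 0.32 either way, 1 member was higher, the sterol reductase gene Tm7sf2, and 2 were lower, the isoprenoid isomerase gene Idi1 and the SREBP inhibitor gene Insig1, against 7.34% and 6.76% of measured genes. These counts are close to what the background shares give for 33 genes. The members' median difference was 0.030 beside 0.0017 over all measured genes, with 20 of 33 above 0 beside 50.2% of measured genes, and 13 below 0 beside 48.8%. The median was -0.0058, with 16 members above 0, when the trend of the difference on the level was removed.

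**Figure D1:**
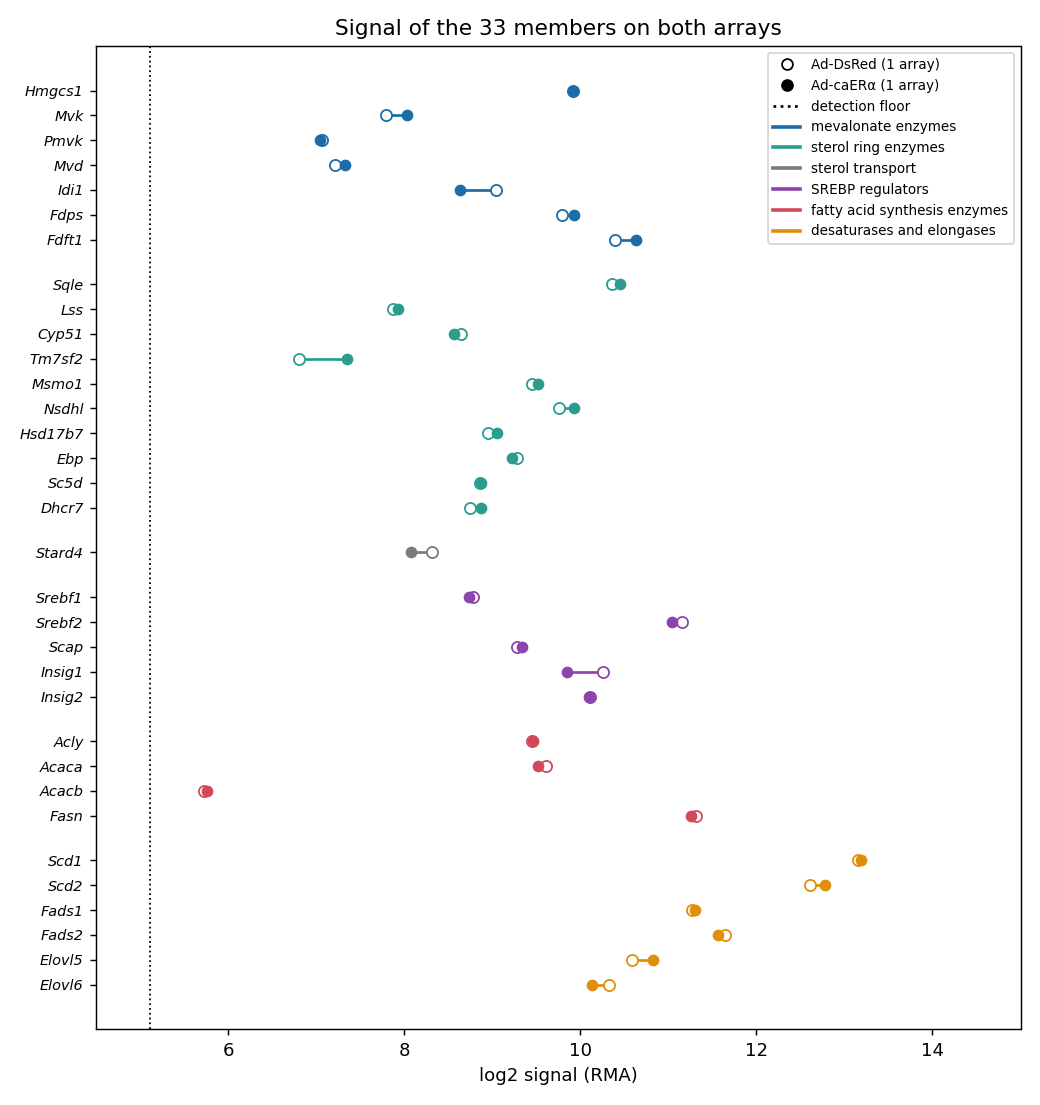
Log2 signal (horizontal axis) of the 33 members on the Ad-DsRed array (open circles) and the Ad-caERα array (filled circles), 1 array each, grouped by role, with the detection floor of 5.11 as a dotted line. The widest gaps are those of Tm7sf2 (6.80 to 7.34), Idi1 (9.04 to 8.63) and Insig1 (10.26 to 9.84); levels of different genes are read by different probes and are not comparable.

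As a yardstick of measurement spread, probe sets that read the same gene differed in their difference with a within-gene SD of 0.13 (770 measured genes). This covers disagreement between probes on the same 2 arrays and not the spread between cultures. By that yardstick 22 of 33 members lay within 0.13 of 0, beside 47.4% of measured genes. Of the others 7 lay above it and 4 below, beside 27.0% and 25.6% of measured genes. Members and measured genes were not matched for signal level. On the Ad-DsRed array the lowest value was 5.72 among the members and 4.05 among measured genes. Over the receptor probe sets that set the floor, the SD of the differences was 0.22.

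The 12 myotube markers were all measured. Their differences ran from -0.61 in Casq1, calsequestrin, which binds calcium inside the muscle store (9.29 in Ad-DsRed and 8.68 in Ad-caERα), with Ttn at -0.42 and Mef2c at -0.39, to 0.22 in Des (12.78 and 13.00). Their median difference was -0.14, with 10 of 12 below 0, and their summed linear signal in Ad-caERα was 0.965 of that in Ad-DsRed. The adipocyte markers Adipoq, Fabp4 and Lep did not reach the floor on either array. Of 11 adipocyte markers on the array 8 were measured: Pparg, Cebpa, Lipe, Lpl, Plin1, Cidec, Retn and Cd36. Near the floor in Ad-DsRed and Ad-caERα were Plin1 (5.64 and 5.40), Cidec (5.58 and 5.26), Retn (5.17 and 5.18) and Cd36 (5.61 and 5.59). The summed signal of those 8 was 1.85-fold higher in Ad-caERα, and without Lpl (8.16 and 10.14), which muscle also expresses, it was 0.961 of that in Ad-DsRed. Of 9 hepatocyte markers 1 was measured, Apoa1 (6.20 and 5.84), and Alb was below the floor. Of 10 fibroblast markers 9 were measured, with a median difference of -0.15, 7 below 0, and Fap lowest at 5.39 in Ad-DsRed against a value below the floor, at least 1.22-fold lower; their summed signal was 0.987 of that in Ad-DsRed. Of 9 leukocyte markers 2 were measured (summed signal 1.12 of that in Ad-DsRed), and of 6 endothelial markers 2 (0.914). The part of these shifts in the members' values was not tested, and in such bulk RNA fewer cells of a type and less RNA per cell cannot be told apart. Esr1, which the vector should raise, read 7.38 in Ad-DsRed and 8.44 in Ad-caERα.

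Promoters are shown for the 3 members past 0.32 and for Hmgcs1, the only member whose window held the sterol response element searched for. The letters are RefSeq promoter windows (GRCm38.p6), available for 26 of the 33 members and not for Fdps, Fdft1, Sqle, Scd1, Scd2, Fads1 and Stard4. Each window ran from 250 bases before to 50 bases after a transcription start, and only the upstream bases are printed, 5′ to 3′ on the gene's strand. Capitals mark the motifs searched on both strands: TCACNCCAC (a sterol response element), CCAAT (the NF-Y box, ATTGG on the other strand), GGTCA (a single arm of the estrogen response element) and CACGTG (the E-box). The windows shown are chr13:119690101-119690350 on the plus strand for Hmgcs1, chr13:8885356-8885605 on the plus strand for Idi1, chr5:28071162-28071411 on the plus strand for Insig1, and chr19:6067851-6068100 on the minus strand for Tm7sf2.
Hmgcs1: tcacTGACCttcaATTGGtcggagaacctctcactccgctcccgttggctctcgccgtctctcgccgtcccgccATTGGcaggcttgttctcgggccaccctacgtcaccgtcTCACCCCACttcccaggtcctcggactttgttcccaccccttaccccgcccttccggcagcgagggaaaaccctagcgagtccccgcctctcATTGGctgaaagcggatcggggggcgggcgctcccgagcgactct
Idi1: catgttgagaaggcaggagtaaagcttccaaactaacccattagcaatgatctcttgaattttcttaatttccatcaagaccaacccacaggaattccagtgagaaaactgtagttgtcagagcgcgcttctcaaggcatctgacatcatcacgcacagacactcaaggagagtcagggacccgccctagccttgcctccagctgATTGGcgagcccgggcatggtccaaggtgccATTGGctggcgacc
Insig1: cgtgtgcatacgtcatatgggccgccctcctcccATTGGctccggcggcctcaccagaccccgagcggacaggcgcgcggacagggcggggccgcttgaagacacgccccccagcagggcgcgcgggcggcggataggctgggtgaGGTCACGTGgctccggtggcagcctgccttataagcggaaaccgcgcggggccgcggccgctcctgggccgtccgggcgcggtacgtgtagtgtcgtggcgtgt
Tm7sf2: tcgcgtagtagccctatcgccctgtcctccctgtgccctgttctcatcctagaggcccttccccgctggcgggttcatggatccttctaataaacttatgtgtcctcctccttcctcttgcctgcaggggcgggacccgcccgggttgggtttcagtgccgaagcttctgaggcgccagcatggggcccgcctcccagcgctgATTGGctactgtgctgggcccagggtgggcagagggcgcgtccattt

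All 4 windows held at least 1 CCAAT box. With positions counted back from the start, Idi1 held boxes whose leftmost bases lay at -45 and -14, and Tm7sf2 held 1 at -47. In Insig1 the E-box at -101 overlapped the GGTCA arm that begins at -104. The sterol response element of Hmgcs1 began at -137. Counting a gene when any of its windows held the motif, CCAAT was in 22 of 26 members (84.6%) and in 41.1% of 27025 genes with a window. All 14 sterol enzymes with a window held it, as did 4 of 7 genes of the fatty acid branch and 4 of 5 regulators. The E-box was in 6 of 26 members (23.1%) and 8.09% of all genes, and GGTCA in 14 of 26 (53.8%) and 43.6%. TCACNCCAC was in 1 of 26 members (3.85%) and 1.44% of all genes. The full palindromic estrogen response element, 2 facing GGTCA arms with 3 free bases between them, was in 0 of 26 and 0.0740% of all genes. These counts describe letters in short windows, 5 members had more than 1 window, and they show no binding.

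The early, mevalonate part of the sterol branch had a small positive median and 1 member, Idi1, well below it. Its 7 enzymes had a median difference of 0.11 and a mean of 0.040, with 5 above 0, and ran from -0.42 to 0.23. Hmgcs1, which makes HMG-CoA at the entry of the pathway, read 9.91 in Ad-DsRed and 9.92 in Ad-caERα, a difference of 0.0048. The entry enzyme was thus level between the arrays.

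The kinases and the decarboxylase that follow made small steps. Mvk, mevalonate kinase, read 7.79 in Ad-DsRed and 8.02 in Ad-caERα, 1.18-fold higher. Pmvk, the next kinase, read 7.06 and 7.04 on the same arrays, a difference of -0.022. Mvd, which removes the carboxyl group, read 7.21 and 7.32, a difference of 0.11. Only Mvk of these exceeded the within-gene SD of 0.13.

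Idi1, which interconverts the 2 isoprenoid building blocks, was the lowest of the 33 members. It read 9.04 in Ad-DsRed and 8.63 in Ad-caERα, 1.34-fold lower, and 3.13% of measured genes had a lower difference. Its other single-gene probe set read 8.95 and 8.67, a difference of -0.28. Both probe sets were lower in the Ad-caERα array, although they differed in size by about the within-gene SD.

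The enzymes that lead to squalene from the isoprenoid units were slightly higher. Fdps, which makes farnesyl diphosphate, read 9.79 in Ad-DsRed and 9.92 in Ad-caERα, a difference of 0.14. Fdft1, squalene synthase, read 10.40 and 10.63, 1.18-fold higher. Its other probe set read 10.16 and 10.47, a difference of 0.32. Idi1 and Fdps, which catalyse successive steps, were therefore 0.55 apart in their differences.

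The 10 enzymes that close and trim the sterol ring had a median difference of 0.075, with 8 above 0. Their range was -0.080 to 0.54, and 8 of the 10 lay within 0.13 of 0. Sqle, squalene epoxidase and a rate-controlling step of the pathway, read 10.36 in Ad-DsRed and 10.45 in Ad-caERα. Lss, which forms lanosterol, read 7.87 and 7.93. Cyp51, which removes a methyl group from lanosterol, read 8.64 and 8.56, the lowest difference of the ring enzymes.

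Tm7sf2, a sterol reductase that acts on the product of Cyp51, had the highest difference of the 33 members. It read 6.80 in Ad-DsRed and 7.34 in Ad-caERα, 1.46-fold higher, and 2.08% of measured genes had a higher difference. It lay 0.62 above Cyp51, the enzyme before it. Tm7sf2 has 1 single-gene probe set, so no second reading is available within the arrays.

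The remaining ring enzymes varied over a narrow range. Msmo1, the oxidase that starts removal of the other methyl groups, read 9.45 in Ad-DsRed and 9.52 in Ad-caERα. Nsdhl, the decarboxylating dehydrogenase of that removal, read 9.76 and 9.93. Hsd17b7, its ketoreductase, read 8.95 and 9.05. Nsdhl, with a difference of 0.16, was the only one of these beyond 0.13. Ebp, an isomerase of the later steps, read 9.28 and 9.22. Sc5d, the desaturase that follows it, read 8.86 and 8.87. Dhcr7, a reductase that can form cholesterol itself, read 8.74 and 8.86. The last 3 differences ran from -0.057 to 0.12.

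Among the 5 SREBP regulators, 1 lay beyond the within-gene SD of 0.13. Insig1, an endoplasmic reticulum protein that holds SCAP back and whose own gene is an SREBP target, read 10.26 in Ad-DsRed and 9.84 in Ad-caERα, 1.33-fold lower. A lower difference was found in 3.25% of measured genes. Its relative Insig2 read 10.10 on both arrays, a difference of -0.0012, so the difference of Insig1 was 0.41 below that of Insig2.

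The SREBP genes and their escort were near level. Srebf2 read 11.16 in Ad-DsRed and 11.04 in Ad-caERα, a difference of -0.11. Srebf1 read 8.78 and 8.74, a difference of -0.042, and its isoforms were not told apart here. Scap read 9.28 and 9.34, a difference of 0.055. The median of the 5 regulators was -0.042 (-0.10 to -0.013 over the other settings), with 1 above 0 (Scap), and transcript levels do not measure the cleaved, active SREBP proteins.

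Stard4, which moves cholesterol between membranes and is a known SREBP target, read 8.31 in Ad-DsRed and 8.08 in Ad-caERα, 1.18-fold lower. Stard4, Insig1 and Idi1 had the 3 lowest differences of the list. Of the 17 sterol enzymes, Idi1 among them, 13 were above 0 and 4 below, beside 50.2% and 48.8% of measured genes. Whether SREBP activity differed between the cultures was not tested. Over the 17 sterol enzymes, 5 lay above 0.13 (Tm7sf2, Fdft1, Mvk, Nsdhl and Fdps) and 1 below -0.13 (Idi1), beside 27.0% and 25.6% of measured genes.

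**Figure D2:**
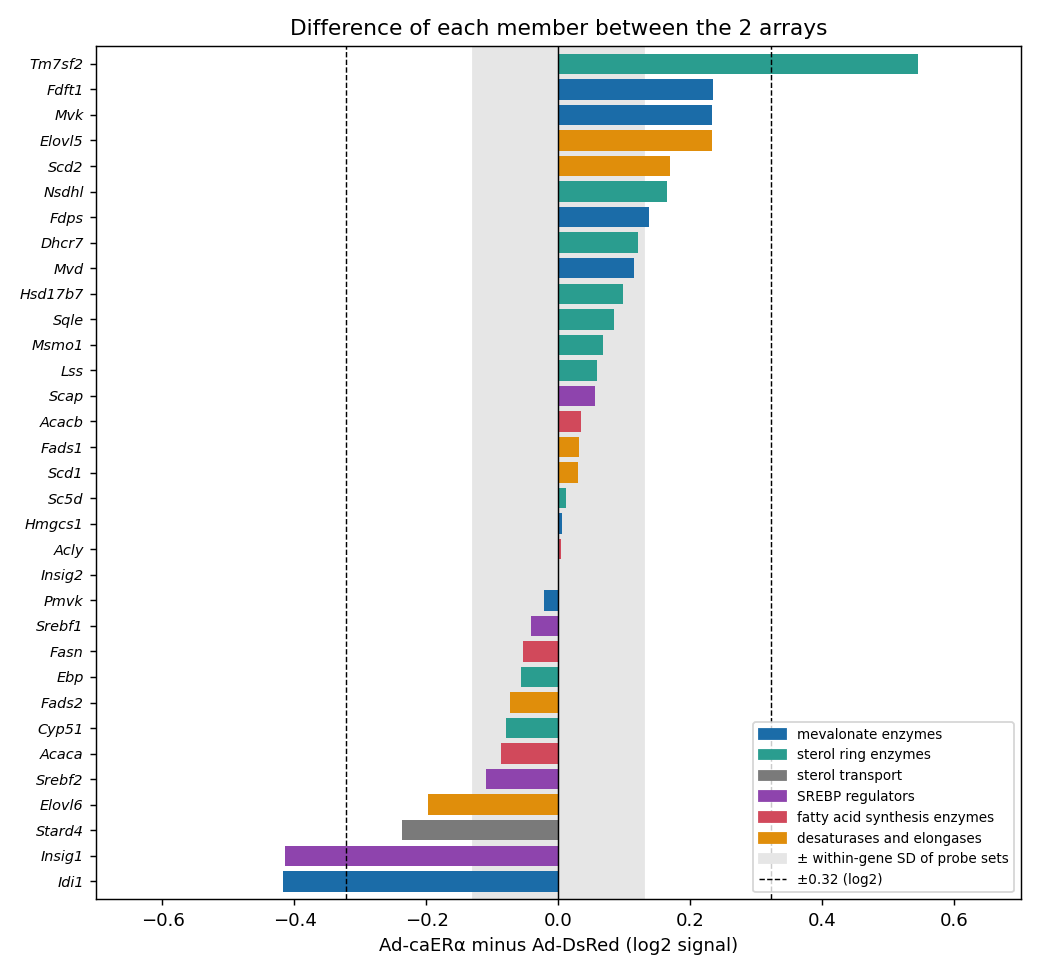
Difference of each member, Ad-caERα minus Ad-DsRed in log2 signal (horizontal axis), ordered by size and coloured by role; bars start at 0, the grey band is ± the within-gene SD of 0.13, and dashed lines mark 0.32 either way. Tm7sf2 (0.54) passes the line upward, Insig1 (-0.41) and Idi1 (-0.42) pass it downward, and 22 of 33 bars end inside the band.

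The enzymes that build fatty acid chains were level between the arrays. Acly, which supplies cytosolic acetyl-CoA from citrate, read 9.45 in Ad-DsRed and 9.46 in Ad-caERα. Fasn, fatty acid synthase, read 11.31 and 11.26. Acaca, the acetyl-CoA carboxylase of lipogenic tissues, read 9.60 and 9.52, and its other probe set 8.70 and 8.58. Acacb, the carboxylase isoform of oxidative tissues such as muscle, read 5.72 and 5.76, the member closest to the floor. All 4 differences lay within 0.13 of 0, from -0.086 to 0.034, with a median of -0.024 (0.0046 when the arrays were centred on their medians).

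Desaturases and elongases spread more widely and in both directions. Elovl5, which lengthens polyunsaturated chains, read 10.59 in Ad-DsRed and 10.82 in Ad-caERα, 1.17-fold higher. Elovl6, which lengthens saturated and monounsaturated chains, read 10.33 and 10.13, 1.15-fold lower. These elongases were 0.43 apart, the full range of the fatty acid branch.

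The stearoyl-CoA desaturases, which make monounsaturated fatty acids, were both far above the floor. Scd1 read 13.15 in Ad-DsRed and 13.18 in Ad-caERα, a difference of 0.030, and Scd2 read 12.60 and 12.77, a difference of 0.17. These genes are similar in sequence and lie in a family of 4 here, and cross-reading between their probes was not tested. Fads1, a desaturase of polyunsaturated fatty acids, read 11.27 and 11.30. Fads2, which acts before it, read 11.64 and 11.57. The 6 desaturases and elongases had a median of 0.031 (0.0027 with the trend on the level removed and 0.060 with the arrays centred), with 3 beyond 0.13.

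The sterol and fatty acid branches overlapped in their differences. The 17 sterol enzymes had a median difference of 0.084, with 13 above 0, and ran from -0.42 to 0.54. The 10 genes of the fatty acid branch had a median of 0.017 (-0.016 when quantile normalization was repeated), with 6 above 0, and ran from -0.20 to 0.23. The medians were 0.067 apart, the sterol enzymes higher (0.067 to 0.080 over the other settings, several of which shift both branches alike). The range of the fatty acid branch lay inside that of the sterol enzymes. With 1 array per vector, whether the branches differ could not be tested.

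Other genes of lipid metabolism, from 6 lists of 107 genes in all, give the setting. Of these, 94 had a single-gene probe set and 88 were measured; the other 13 were not analysed here. At 2-fold 1 was higher and 0 were lower, beside 0.590% and 0.0959% of measured genes. Past 0.32 on the log2 scale 7 were higher and 1 was lower, beside 7.34% and 6.76%.

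The gene past 2-fold was Gpam, the mitochondrial acyltransferase that commits fatty acids to glycerolipids. It read 8.89 in Ad-DsRed and 9.96 in Ad-caERα, 2.11-fold higher. In its list of triglyceride and phospholipid synthesis the next highest was Pemt, which methylates phosphatidylethanolamine (7.34 and 7.92, 1.49-fold higher). The lowest were Lpin2 (8.80 and 8.62) and Plin5 (5.51 and 5.34, near the floor). The list's median was 0.14 over 16 measured genes, with 11 above 0. The acyltransferase genes after Gpam had differences of 0.23 (Agpat1), 0.19 (Agpat2) and 0.082 (Agpat3). The lipin genes of the list had 0.21 (Lpin1), -0.19 (Lpin2) and -0.0045 (Lpin3). Dgat1 and Dgat2, which make triglyceride, had 0.28 and 0.11. Except for Lpin2, the choice of these genes followed sight of their values.

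Other lipogenic genes, a list that also takes in enzymes of mitochondrial fatty acid synthesis, were mostly above 0. Of 22 measured, 19 were above 0 beside 50.2% of measured genes, and the median was 0.15 (0.12 to 0.18 over the other settings). Of these 11 lay above 0.13 and 0 below -0.13, beside 27.0% and 25.6%. Slc25a1, which exports citrate from mitochondria for Acly, read 9.13 in Ad-DsRed and 9.57 in Ad-caERα, 1.36-fold higher. Mcat, a mitochondrial fatty acid synthesis enzyme, read 7.68 and 7.98, and the lowest were Fads6 (6.33 and 6.22) and Hacd1 (11.42 and 11.34), a muscle chain-elongation dehydratase. Whether this list differs from the members was not tested.

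In the remaining sterol lists the median differences were small. Other sterol and isoprenoid enzymes had a median of 0.0027 over 8 genes (between -0.0035 and 0.071 over the other settings), with Cyb5a, an electron donor (9.37 and 9.74), and Ggps1, which makes geranylgeranyl diphosphate (8.58 and 8.94), highest, and Ch25h (7.16 and 6.96) and Cyp27a1 (5.42 and 5.36), both sterol hydroxylases, lowest. The difference of Cyp27a1, -0.061, was 0.014 with quantile normalization repeated and 0.043 with the trend removed. Cholesterol uptake, storage and efflux had a median of 0.046 over 14 genes. There Stard3, a sterol transporter of late endosomes, read 8.52 in Ad-DsRed and 9.01 in Ad-caERα, 1.40-fold higher, and the phospholipid transfer gene Stard10 9.80 and 10.14, 1.26-fold higher. Stard5, of the same domain family as Stard4, read 8.40 and 8.36; it was picked for that after its values were seen. The lowest were the cholesterol exporter gene Abca1 (8.19 and 8.02) and Apoe (8.58 and 8.46).

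Genes that process or degrade the SREBP machinery had a median of 0.035 over 11 genes (0.00077 with quantile normalization repeated, 0.074 with the dimmest probe sets). The highest were the ubiquitin ligase gene Rnf139 (8.96 and 9.24) and Ubxn8 (8.37 and 8.59), both tied to degradation at the endoplasmic reticulum. The lowest were Fbxw7, which marks nuclear SREBP for degradation (7.09 and 6.87), and the chaperone gene Hsp90b1 (12.12 and 11.98). The second probe set of Fbxw7, below the floor, read 4.70 and 4.88, the opposite direction. Mbtps1, the protease that makes the first cut in SREBP, read 10.44 and 10.55; it was picked for that role after its values were seen.

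**Figure D3:**
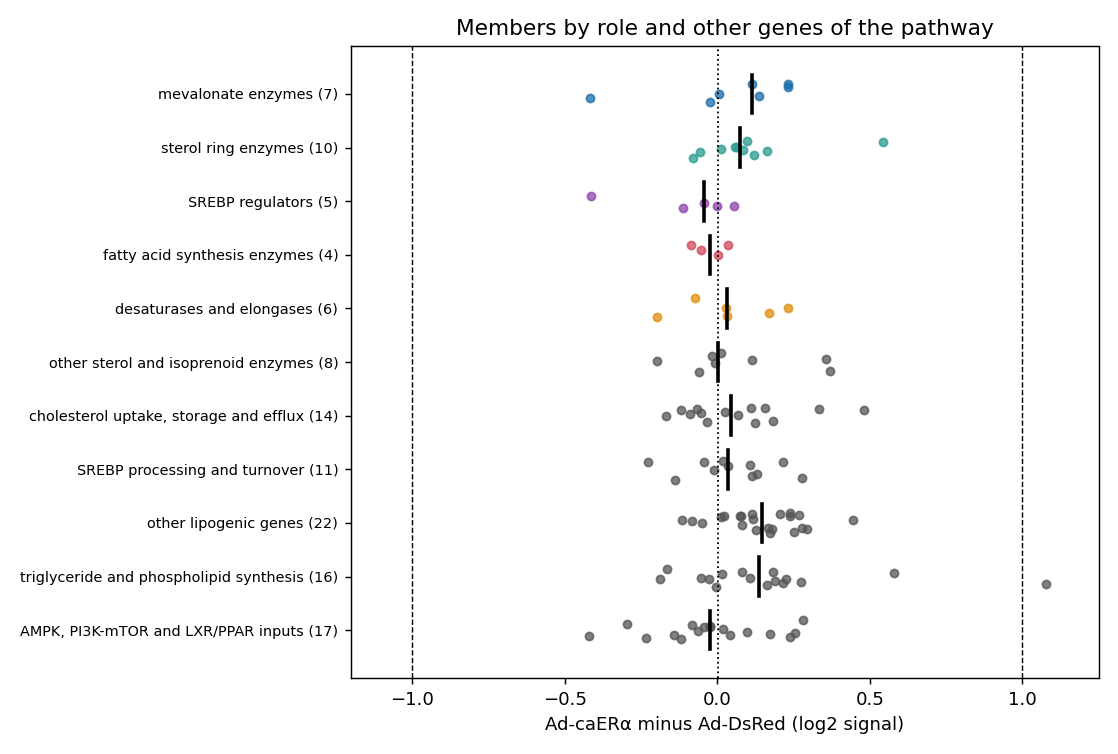
Difference of each measured gene, Ad-caERα minus Ad-DsRed in log2 signal (horizontal axis; 1 point per gene), for 5 role groups of the members (coloured) and 6 other lists (grey), with the number measured in brackets, the list median as a black bar, the median of all measured genes as a dotted line and 2-fold as dashed lines. Gpam (1.08) is the only point past 2-fold, and the medians of the other lipogenic genes (0.15) and of triglyceride and phospholipid synthesis (0.14) lie farthest from the dotted line.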

How the data were processed

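The authors deposited a log2 signal for every probe set and array, made with Affymetrix Expression Console and RMA per the submitters' processing notes; the sources used here give no versions or filters. RMA shrinks differences between weak signals, and because it equalizes the arrays' distributions a change in total mRNA would not show. Of 35556 probe sets, 21789 name 1 gene in the platform annotation, 1621 several and 12146 none; 21698 of the first matched RefSeq gene identifiers and 0 symbols changed.

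Each gene was read by its single-gene probe set, the brightest by its mean over both arrays where there were several (999 genes). Measured genes had at least 1 of the 2 values above the floor, the 95th percentile of the higher value over 1210 receptor probe sets. Where both arrays passed it, a fold is the brighter over the dimmer. Precision is limited by 1 array per group; no test was made. All 33 members are named, and in each other list the 2 highest and 2 lowest measured genes, with Esr1 and marker levels; further names are stated as chosen later or are paired with a member. The members and lists were chosen with earlier results of these data known. Alternatives covered the floor, normalization, probe set choice, fold threshold and list summary. The code was tested on simulated data. Tools were Python 3.11.15 with pandas 2.3.3, numpy 2.4.6, statsmodels 0.14.6 and matplotlib 3.10.9.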

Additional observations from a re-analysis of the deposited data

How the results depend on the processing

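No paired analysis was possible because there is 1 array for each vector, and no replicate could be left out. Of 263 recalculated member differences, 262 moved by less than the within-gene SD. The exception was Idi1, at -0.28 with its dimmer probe set. Most of the 263 could not move, so the count of 262 is no measure of stability. For a member with 1 probe set, above the floor on both arrays, the floor and probe set settings return the same value. Centring the arrays shifted every member by the same amount. In all, 7 members near 0 changed sign in 10 of the 263 (Hmgcs1, Pmvk, Sc5d, Insig2, Acly, Scd1 and Fads1, the last to 0). List medians moved with the settings, and that SD of single genes is no yardstick for them: 5 of them changed sign or reached 0 in 7 of 135 recalculations. The median over all members ran from -0.0058 with the loess trend removed to 0.059 with arrays centred on their medians, that of the sterol enzymes from 0.055 to 0.11, the mevalonate enzymes from 0.040 (the mean) to 0.14, the ring enzymes from 0.044 to 0.10, the fatty acid branch from -0.016 to 0.046, its 4 synthesis enzymes from -0.062 to 0.0046, the desaturases and elongases from 0.0027 to 0.060 and the regulators from -0.10 to -0.013. The count past 2-fold, 0, became 3 at the 0.32 rule and was 0 at 3-fold and under the other settings, as was the count past 1.5-fold. Members above 0 ranged from 16 to 22. Acacb, Cyp27a1 and Plin5, all above the main floor, lay below the higher floor of 6.16. The difference of Plin5, -0.16, was -0.063 with the trend removed. Fbxw7 went from -0.23 to -0.024 when its probe sets were averaged. Signals near the floor limit what can be read from Acacb, Cyp27a1 and Plin5. Differences of the size seen here cannot be told from the spread between cultures, which is unknown.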

Other observations

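Upstream inputs to the pathway had a median difference of -0.023 over 17 measured genes (0.0056 when the arrays were centred on their medians), with 7 above 0 and 10 below. Among the subunits of AMPK, the kinase that inhibits acetyl-CoA carboxylase, the muscle isoforms Prkag3 (8.65 in Ad-DsRed and 8.23 in Ad-caERα, 1.34-fold lower) and Prkaa2 (a difference of -0.30) were the lowest of the list. The widely expressed subunit Prkag2 (7.18 and 7.46) and the retinoid receptor gene Rxra (8.56 and 8.82), partner of LXR and PPAR receptors, were the highest. Between the γ subunits of the same kinase the differences thus ran from -0.42 in Prkag3 to 0.28 in Prkag2, with Prkag1 at 0.24. The β subunits were not lower: Prkab2 read 8.72 in Ad-DsRed and 8.74 in Ad-caERα, a difference of 0.020, and Prkab1 had a difference of 0.17. Myotube markers had a median of -0.14 over the same arrays, and their part in the values of Prkag3 and Prkaa2 was not tested. The fatty acid receptor gene Ppara was below the floor, while Pparg (8.22 and 8.16) and Ppard (9.64 and 9.62) were near level. The choice of these 3, Prkag1 and the β subunits followed sight of their values.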
